A study of Mus musculus with 121 samples.

Results

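Dbp, Tef and Cry1, transcripts of the circadian clock and its output arm, were higher at 16 h than at 4 h in fibroblasts under HH, and Spon2, which encodes a secreted matrix protein, was lower. The comparison takes the libraries of the second HH collection, named here 4 h, and of the fifth, named 16 h, which lie 12 h apart. They are 6 of the 62 libraries of the series, 3 at each time, and are taken by the treatment and collection in their titles.

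The cells were mouse fibroblasts of an immortalized line with the PER2::LUC sv genotype, a reporter in which luciferase is fused to the clock protein PER2, at expansion passage P25. In HH, medium high in glucose and insulin was renewed every 12 h over 3 days, so that neither compared group met the low medium during the treatment, and the cells were then left without further changes for 12 h before the first RNA collection (0 h). The other treatments, HL and LH, alternated high and low medium in opposite orders. Total RNA was sequenced by 3′DGE, which reads the 3′ end of each transcript. Both groups shared cell line, genotype, passage, kind of medium and protocol, as far as the labels say, and differed in collection. With no change of medium described after the treatment, the 16 h group had also been 12 h longer in culture and in its medium. Clock time, age of the medium and time in culture thus cannot be told apart. Both groups carry the clock hour 12 in their labels, so the times 4 h and 16 h rest on the collection number and the 4 h interval. A single line stands behind all libraries, and nothing in the labels ties a library to its own culture. The study's methods describe its replicates in general as biological and its repeat sequencing runs as technical. The p-values measure the spread between these libraries.

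The mammalian clock is a transcriptional loop. CLOCK and its partner BMAL1, the product of Arntl, act at E-boxes and raise Per, Cry, Nr1d1, Nr1d2, Dbp and Tef transcripts. The PER and CRY proteins then inhibit CLOCK and BMAL1, while the NR1D1 and NR1D2 repressors and the ROR activators compete at ROR elements, among them those of Arntl, Nfil3 and Cry1. DBP, TEF and HLF activate and NFIL3 represses genes that carry D-boxes. Fibroblasts in culture keep such rhythms cell by cell, and a change of medium can set their phase. A pair of collections 12 h apart shows a daily rhythm best when they fall near its peak and trough, and shows nothing of a rhythm that they meet on its slopes at equal height.

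The promoter windows below are those of the called clock genes together with Per3 and Arntl, which show the D-box and the ROR element. They come from RefSeq (build GRCm38.p6), are written 5′ to 3′ on the gene's strand, and run from 250 bases before to 50 bases after an annotated start. Capitals mark an E-box (CACGTG), its variant CACGTT, a D-box (TTATGTAA or TTACGTAA) or a ROR element, all searched on both strands. Dbp (chr7:45704997-45705296, plus strand) held none of these letters in this window.
Dbp: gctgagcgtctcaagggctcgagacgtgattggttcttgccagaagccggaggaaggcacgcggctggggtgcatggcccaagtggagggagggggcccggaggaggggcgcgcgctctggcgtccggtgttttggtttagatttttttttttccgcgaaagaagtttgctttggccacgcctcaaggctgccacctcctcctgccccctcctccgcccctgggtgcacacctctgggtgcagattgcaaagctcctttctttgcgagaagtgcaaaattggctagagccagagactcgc
Tef has 2 annotated starts, at chr15:81802423-81802722 and chr15:81811164-81811463 on the plus strand, and each window held 1 E-box, 127 and 138 bases before the start.
Tef, first start: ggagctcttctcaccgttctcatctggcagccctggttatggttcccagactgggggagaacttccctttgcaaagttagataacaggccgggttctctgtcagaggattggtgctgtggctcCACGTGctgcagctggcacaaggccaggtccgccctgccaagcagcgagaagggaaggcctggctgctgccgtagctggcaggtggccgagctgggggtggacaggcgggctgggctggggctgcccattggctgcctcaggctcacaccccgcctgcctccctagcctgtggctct
Tef, second start: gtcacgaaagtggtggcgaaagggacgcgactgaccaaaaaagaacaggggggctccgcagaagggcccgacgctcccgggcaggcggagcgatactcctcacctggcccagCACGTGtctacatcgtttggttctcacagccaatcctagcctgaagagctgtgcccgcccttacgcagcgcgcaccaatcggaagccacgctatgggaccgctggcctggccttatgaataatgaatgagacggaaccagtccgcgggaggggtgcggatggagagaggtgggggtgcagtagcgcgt
Cry1 (chr10:85185005-85185304, minus strand) held an E-box 60 bases and its variant 79 bases before the start.
Cry1: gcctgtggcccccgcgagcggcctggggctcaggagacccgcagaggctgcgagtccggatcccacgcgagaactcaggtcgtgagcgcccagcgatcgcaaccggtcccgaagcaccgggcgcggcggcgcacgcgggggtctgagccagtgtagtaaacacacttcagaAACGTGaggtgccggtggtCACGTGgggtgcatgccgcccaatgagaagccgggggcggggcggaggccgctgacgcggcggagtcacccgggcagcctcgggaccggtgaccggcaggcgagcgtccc
Per3 (chr4:151044616-151044915, minus strand) held 2 D-boxes, 205 and 158 bases before the start.
Per3: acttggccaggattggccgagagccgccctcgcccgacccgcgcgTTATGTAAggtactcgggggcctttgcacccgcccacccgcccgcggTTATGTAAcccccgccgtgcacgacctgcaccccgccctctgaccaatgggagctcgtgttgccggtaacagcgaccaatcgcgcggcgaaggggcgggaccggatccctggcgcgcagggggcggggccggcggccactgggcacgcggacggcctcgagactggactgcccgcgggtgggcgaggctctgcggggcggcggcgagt
The second of 2 annotated Arntl starts (chr7:113207261-113207560, plus strand) held a ROR element that begins 27 bases after the start.
Arntl, second start: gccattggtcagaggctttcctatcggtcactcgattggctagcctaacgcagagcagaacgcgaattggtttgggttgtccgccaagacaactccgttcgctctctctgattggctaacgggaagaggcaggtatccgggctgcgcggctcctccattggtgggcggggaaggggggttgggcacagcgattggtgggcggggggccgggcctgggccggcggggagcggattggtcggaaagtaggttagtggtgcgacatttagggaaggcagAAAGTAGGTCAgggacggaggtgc

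Of all 32851 RefSeq windows of this length, 7.15% held the E-box, 4.68% its variant, 1.06% a D-box and 0.384% a ROR element. Of the 32 clock genes tested, 26 had a window, and these had 37 windows in all, of which 6 held the E-box, 4 its variant, 3 a D-box and 1 a ROR element. By gene, the E-box was found for 5 (Bhlhe41, Ciart, Cry1, Per1 and Tef), its variant for 4 (Cry1, Cry2, Nr1d1 and Rorb), the D-box for 3 (Csnk2b, Per3 and Timeless) and the ROR element for Arntl alone. Such a match is a description of the letters in the window.

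The 6 libraries held 3687321 to 11619095 counts. Levels below are CPM, a gene's count relative to all counts of its library after both sequencing runs were summed, scaled by TMM, edgeR's correction for library composition. Among the 4 h libraries, replicate 1 differed most from the others, with chi-squares of its counts against theirs, divided by the degrees of freedom, of 29.4 and 36.5, where replicates 3 and 4 gave 11.1 and libraries at 16 h gave 4.67 to 14.4, and the gene model Gm42418 took 26.7% of its counts against 14.0% to 20.6% in the other 5 libraries. Outside the compared groups, replicates 2 and 3 at 20 h stood apart, with median Spearman correlations with the other HH libraries of 0.954 and 0.938 against 0.966 or more. All 14 fibroblast markers tested were present, with a summed level of 35925 to 41516 CPM at 4 h and 34163 to 37758 CPM at 16 h. Other cell types' markers summed to far less in the 6 libraries: 5.28 to 8.29 CPM for 4 keratinocyte genes tested, 174 to 208 for 2 endothelial, 14.8 to 32.4 for 7 macrophage and leukocyte, 10.7 to 16.2 for 4 melanocyte and Schwann cell and 434 to 577 for 4 chondrocyte genes, and at most 1.97 for 1 muscle gene. Krt5, Krt1, Cdh5, Cd3e, Sox10, Tyr, Myod1 and Adipoq had 0 counts in all 6.

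Of 13292 genes tested, edgeR's quasi-likelihood test called 4 at an adjusted p (Benjamini-Hochberg) under 0.05, or 0.0301%: 3 were higher at 16 h (0.0226%) and 1 was lower (0.00752%). All 3 that were higher are clock genes. Without adjustment, 484 genes (3.64%) had a p under 0.05, 2.02% of all genes higher and 1.62% lower at 16 h. The spread is shared by all 19 HH libraries, and the count rose to 21 (14 higher, 7 lower) without 2 libraries of the 20 h collection that stand apart from the other HH libraries, to 19 (13 higher, 6 lower) with the 6 compared libraries alone, and to 21 (17 higher, 4 lower) with DESeq2, while a fit over all 62 libraries called 0, with 450 genes at an unadjusted p under 0.05. The 4 genes were called in each of the first 3 of these settings. Only Dbp and Tef were called with the second run alone, without libraries of 1 run and with libraries thinned to equal depth. The same 2 remained without replicate 3 at 4 h and without replicate 1 or 2 at 16 h.

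**Figure D1:**
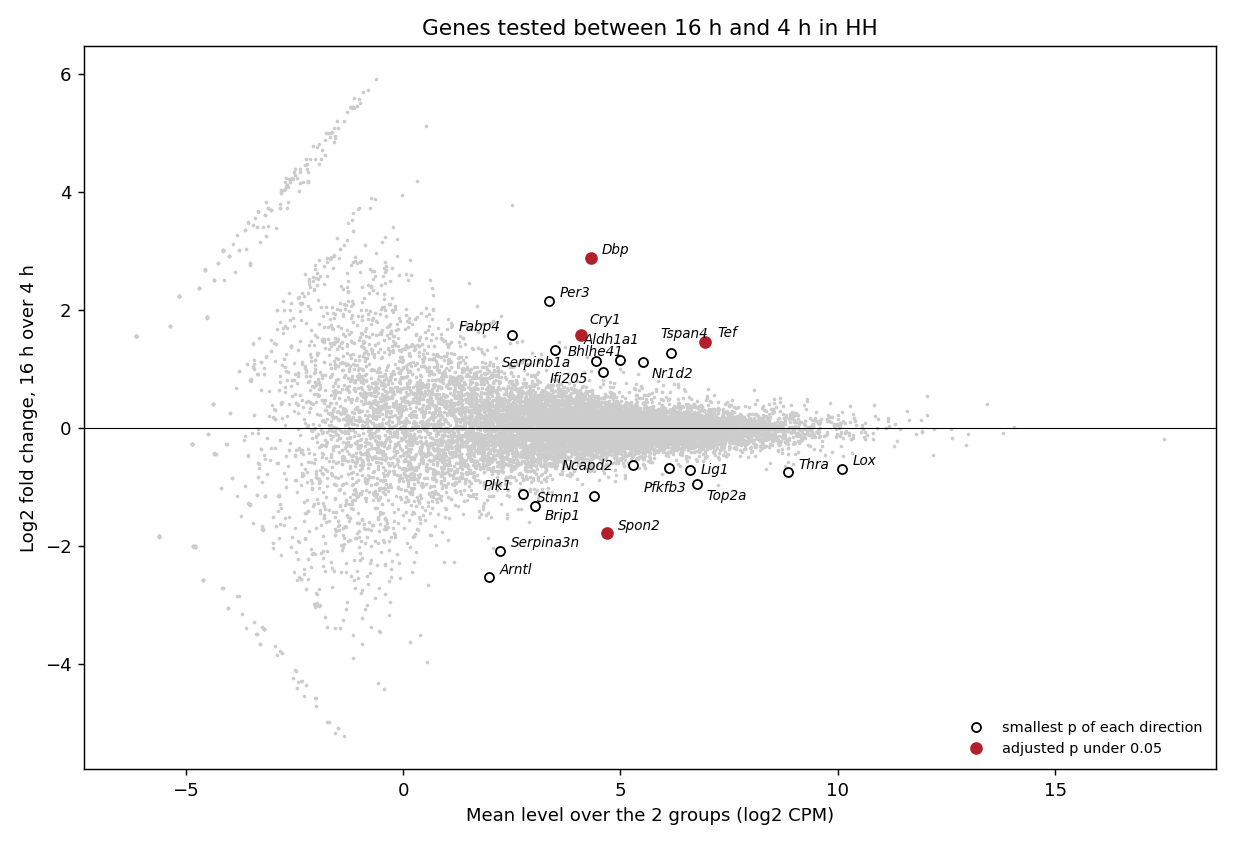
Log2 fold change at 16 h over 4 h (vertical axis) against the mean level over both groups (horizontal axis, log2 CPM) for the tested genes with a count in the 6 libraries, labelled for the 12 genes of smallest p among the lower ones and all but 1 of the 12 among the higher ones. Red points are the 4 genes past the adjusted threshold (Dbp, Tef and Cry1 above zero, Spon2 below), and the spread of fold changes widens towards low levels.

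Dbp, a PAR bZIP activator of D-box genes, had the largest called change. Its level was 5.50, 5.78 and 2.85 CPM in replicates 1, 3 and 4 at 4 h and 33.0, 35.9 and 37.4 CPM in replicates 1, 2 and 3 at 16 h. The libraries at 16 h lie close together and all far above those at 4 h. The mean went from 4.71 ± 1.62 to 35.4 ± 2.24 CPM (SD, n = 3 each), a log2 fold change of 2.88 ± 0.34 (SE) or 7.37-fold, with an adjusted p of 0.000101 by edgeR's quasi-likelihood test. Dbp lies on chromosome 7 from 45705088 to 45710203 on the plus strand (GENCODE M21, GRCm38). Sphk2, on the other strand, shares 737 bases with it, and whether counting used strand is not given in the sources used here. Sphk2 itself had a log2 fold change of 0.12 ± 0.23. In these bulk libraries a larger share of expressing cells and more RNA per cell cannot be told apart, here and for the other genes.

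Tef, the second PAR bZIP factor, measured 73.6, 78.4 and 46.0 CPM at 4 h and 179.9, 174 and 189 CPM at 16 h. The lowest library at 16 h was thus far above the highest at 4 h. The log2 fold change was 1.45 ± 0.18 or 2.73-fold (adjusted p = 0.000101 by edgeR), from a mean of 66.0 ± 17.5 to 181 ± 7.85 CPM (n = 3 each). The gene spans 81802421 to 81826863 on chromosome 15, plus strand.

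The other members of the D-box group did not pass. Hlf, the third PAR bZIP activator, spread widely at 4 h, with 9.93, 23.0 and 58.4 CPM, and overlapped the 68.3, 39.9 and 46.0 CPM at 16 h (log2 fold change 0.76 ± 0.48). Nfil3, which represses at D-boxes, measured 16.7, 12.4 and 7.88 CPM at 4 h and 6.33, 5.41 and 6.34 CPM at 16 h. Each Nfil3 value at 16 h lay below each at 4 h, with a log2 fold change of -1.03 ± 0.39 and an unadjusted p of 0.0130 that did not survive adjustment (adjusted p = 1.0 by edgeR).

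Cry1, which with PER proteins inhibits CLOCK and BMAL1, had 7.40, 8.49 and 9.41 CPM at 4 h and 35.6, 22.7 and 18.2 CPM at 16 h. The 4 h libraries agree closely, whereas replicate 1 at 16 h is high. The log2 fold change was 1.57 ± 0.28 or 2.98-fold (adjusted p = 0.0272 by edgeR). The gene lies on chromosome 10 from 85131700 to 85185064, minus strand. The Cry1 call is the least firm of the 3: it was lost in 5 of the 6 fits that left out a library, with adjusted p up to 0.292 without replicate 1 at 16 h, and held without replicate 3 at 16 h. Dbp and Tef passed in all 6 of these fits.

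Per2 showed the largest fold change among the clock genes, but from few counts. Its 4 h libraries held 4, 5 and 4 counts, or 0.846, 0.615 and 0.875 CPM, and its 16 h libraries 21, 136 and 76 counts, or 5.54, 19.9 and 6.43 CPM. Replicate 2 at 16 h lay well above the other libraries of its group. The log2 fold change of 3.78 ± 0.92 had an adjusted p of 0.270, although the groups do not overlap. Per2 is also the locus of the reporter, and the counts do not tell the fused transcript from another.

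Per3, a PER paralogue, had 6.76, 2.71 and 1.97 CPM at 4 h and 12.4, 15.9 and 21.5 CPM at 16 h, a log2 fold change of 2.15 ± 0.45 (adjusted p = 0.111 by edgeR). Camta1 shares 41014 bases with Per3, all of its span, on the same strand, so strand does not part the pair. Camta1 itself had a log2 fold change of -0.08 ± 0.54. Per1, the paralogue that also answers quickly to external stimuli, overlapped between the times, with 7.40, 4.55 and 10.5 against 11.1, 13.6 and 8.12 CPM (log2 fold change 0.56 ± 0.36). Of the 3 Per genes, then, Per2 and Per3 separated the groups and Per1 did not. Cry2 also separated them, with 14.4, 9.10 and 7.88 against 17.4, 16.5 and 16.2 CPM, by a log2 fold change of 0.68 ± 0.30 (unadjusted p = 0.0317, adjusted p = 1.0 by edgeR).

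The NR1D repressors had estimates of opposite sign. Nr1d2 had 42.1, 23.6 and 20.8 CPM at 4 h and 66.7, 61.5 and 59.98 CPM at 16 h (log2 fold change 1.12 ± 0.23, adjusted p = 0.111 by edgeR), with replicate 1 the highest at 4 h. Nr1d1 had 32.7, 25.8 and 30.4 CPM at 16 h against 50.1, 49.5 and 33.7 CPM at 4 h (log2 fold change -0.59 ± 0.31, unadjusted p = 0.0674). The difference between these 2 fold changes was not tested. Bhlhe40 and Bhlhe41, basic helix-loop-helix repressors that bind E-boxes, both separated the groups upward: Bhlhe40 from 2.34 to 4.23 CPM at 4 h to between 7.91 and 9.98 CPM at 16 h (log2 fold change 1.46 ± 0.39, adjusted p = 0.553) and Bhlhe41 from 5.07 to 8.75 CPM to between 14.2 and 17.4 CPM (1.32 ± 0.31, adjusted p = 0.270). Ciart, a further repressor of the loop, stayed at or under 1.17 CPM in the 6 libraries, and Timeless had a log2 fold change of -0.01 ± 0.40.

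Arntl, the gene of BMAL1, had an estimate of the opposite sign to most repressors, with 3.80, 7.63 and 8.54 CPM at 4 h and 1.58, 1.17 and 0.846 CPM at 16 h, the latter from 6, 8 and 10 counts. All 3 libraries at 16 h lay below all 3 at 4 h. The log2 fold change was -2.53 ± 0.52 or 5.77-fold lower (adjusted p = 0.111 by edgeR). Its partner Clock differed little, though without overlap, with 81.0, 80.9 and 75.7 against 71.8, 55.8 and 71.1 CPM (log2 fold change -0.26 ± 0.18). The activators Rora, Rorb, Npas2 and Arntl2 overlapped between the groups. Rora, the best measured of them, had a log2 fold change of 0.03 ± 0.28.

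**Figure D2:**
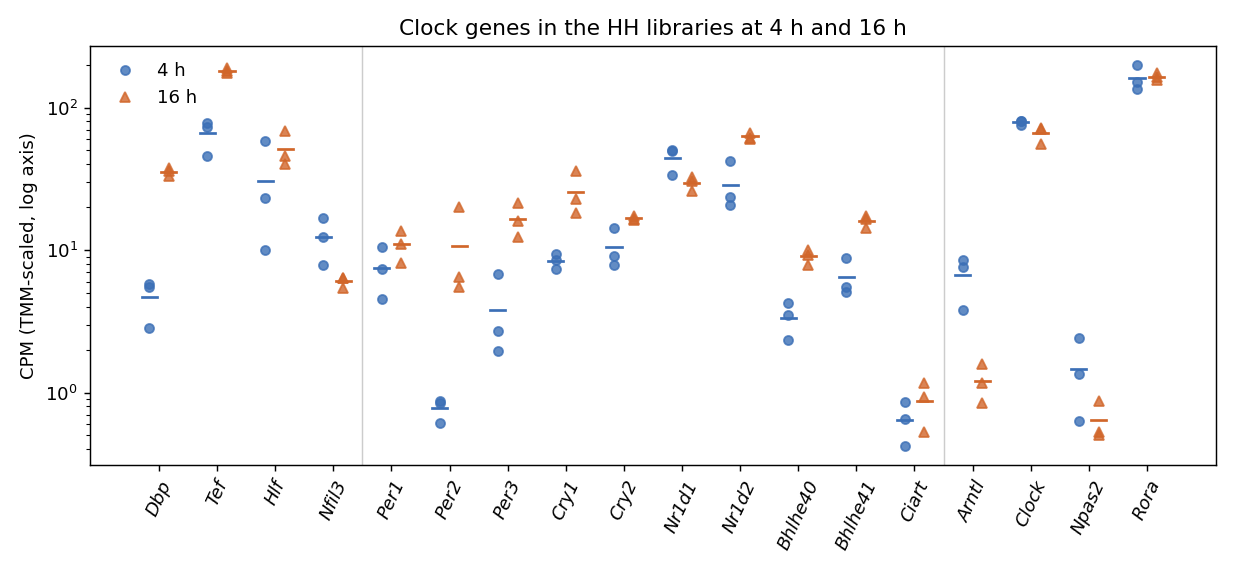
Level of 18 clock genes (TMM-scaled CPM, log axis) in each HH library at 4 h (blue circles) and 16 h (orange triangles), with a bar at each group's mean; grey lines part output factors, repressors and activators. The called Dbp and Tef stand apart between the times with little spread at 16 h. Arntl, Nfil3, Nr1d1 and Clock have all 16 h points below all 4 h points without passing the adjusted threshold, and Hlf, Per1, Ciart, Npas2 and Rora overlap.

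By list, 2 of 4 output factors, 1 of 11 repressors, 0 of 7 activators and RORs and 0 of 10 kinases and ubiquitin enzymes of the clock were called, all of them higher. Median log2 fold changes were 1.10, 1.12, 0.03 and 0.03, beside 0.00 over all genes tested. In 16 of the 32 clock genes the groups did not overlap, 11 higher and 5 lower at 16 h, where 7.20% of all genes were higher without overlap and 6.42% lower (13.6% in all). Usp2, a deubiquitinase with clock targets, was the one kinase or ubiquitin gene with an unadjusted p under 0.05, with 0.846, 0.492 and 4.38 against 7.12, 6.0 and 5.67 CPM (log2 fold change 1.77 ± 0.65, unadjusted p = 0.0112). Its estimate was 3.24 without replicate 4 at 4 h and ran from 1.25 to 3.86 over all alternatives. The other members of that list had smaller log2 fold changes, between -0.31 for Csnk1d, a kinase that marks PER for turnover, and 0.32 for Btrc, part of the ligase that then removes it.

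The 4 other HH collections show where 4 h and 16 h fall on each gene's profile, as a description with no test. Dbp averaged 5.07 CPM at 0 h, 45.5 at 8 h, 57.9 at 12 h and 14.7 at 20 h, so that it was low at 0 h and 4 h and 16 h lay between 12 h and 20 h. The 12 h collection holds only 2 libraries. Tef, Nr1d2 and Bhlhe41 also had their highest mean there, with or without either library. Per3 had 33.9 and 12.8 CPM at 12 h and a mean of 16.6 CPM at 16 h, and Bhlhe40 15.4 and 11.6 CPM at 12 h and a mean of 12.9 CPM at 8 h, so that their highest mean at 12 h rests on replicate 1. Nr1d1 peaked at 8 h with 150.2 CPM and averaged 12.7 CPM at 0 h and 11.04 CPM at 20 h, so the 44.4 CPM at 4 h and 29.6 CPM at 16 h lie on its rising and falling sides. Cry1 was lowest at 4 h and 8 h (8.43 and 9.24 CPM). Its mean was highest at 20 h (31.7 ± 6.59 CPM, n = 4), where the libraries overlapped those at 16 h and 2 stand apart from the other HH libraries. Arntl was near its highest at 0 h and 4 h (6.87 and 6.66 CPM), low at 12 h and 16 h (1.43 and 1.20 CPM) and at 5.67 CPM at 20 h. Nfil3 was lowest at 8 h (3.76 CPM).

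**Figure D3:**
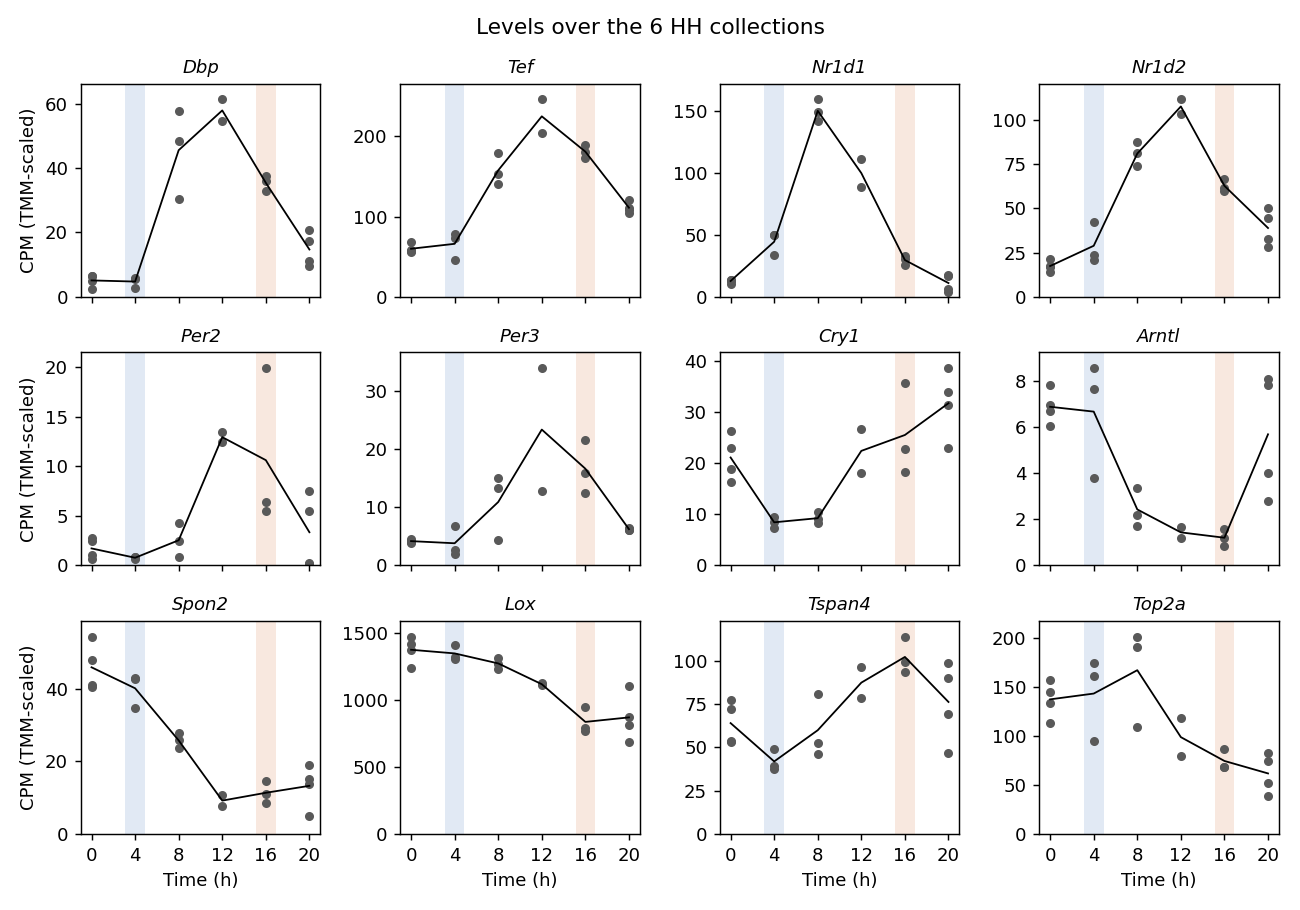
Level (TMM-scaled CPM) of 12 genes over the 6 HH collections (time in h), with a point for each library and a line through the means; 4 h is shaded blue and 16 h orange. Nr1d1 peaks at 8 h and Dbp, Tef and Nr1d2 at 12 h, the Cry1 points at 16 h and 20 h overlap, and Arntl is low at 12 h and 16 h.

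Of the genes with an unadjusted p under 0.05 that were higher at 16 h, 52.8% (142 genes) had their highest mean of the 6 collections at 16 h and 24.2% (65) at 20 h, and 72.5% (195) had their lowest at 4 h. Of the 215 that were lower, 64.2% (138) had their highest mean at 4 h and 53.5% (115) their lowest at 16 h. The choice of genes by this contrast fixes part of these counts.

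Spon2, a secreted F-spondin family protein of the matrix, was the one gene called lower. It had 42.9, 42.7 and 34.6 CPM at 4 h and 8.44, 10.98 and 14.7 CPM at 16 h, with no overlap. The mean fell from 40.1 ± 4.75 to 11.4 ± 3.16 CPM (n = 3 each), a log2 fold change of -1.78 ± 0.31 or 3.44-fold lower (adjusted p = 0.0194 by edgeR). Over the collections it went from 45.8 CPM at 0 h to 9.23 CPM at 12 h and 13.3 CPM at 20 h. The gene lies on chromosome 5 from 33198184 to 33218455, minus strand. The call was lost without replicate 1 or 3 at 4 h and without replicate 1 or 2 at 16 h, with adjusted p of 0.0625 to 0.283.

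Spon2 was the only called member of the matrix glycoprotein and proteoglycan list, in which 46 genes were tested with a median log2 fold change of 0.15. None of 21 collagen chains, 22 enzymes of collagen processing and crosslinking or 22 metalloproteinases and their inhibitors passed, with medians of -0.16, -0.03 and -0.01. Without overlap, 2 collagen chains were higher and 5 lower, 0 and 3 of the processing enzymes and 1 and 8 of the metalloproteinases and inhibitors. For the glycoprotein and proteoglycan list the counts were 10 and 8, beside 7.20% and 6.42% of all genes. The processing enzymes summed to 4690 to 4892 CPM at 4 h and 4058 to 4335 CPM at 16 h. Lox, the enzyme that crosslinks collagen and elastin, had the third smallest p among lower genes. It had 1320, 1413 and 1309 CPM at 4 h and 772, 795 and 944 CPM at 16 h, a tight separation at high counts with a log2 fold change of -0.69 ± 0.16 (adjusted p = 0.228 by edgeR). Its mean went from 1374 CPM at 0 h to 837 CPM at 16 h and 871 CPM at 20 h.

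Several of the remaining lower genes belong to the cell cycle, though none passed. Top2a, the mitotic topoisomerase, had 174, 161 and 94.8 CPM at 4 h and 68.9, 68.0 and 86.9 CPM at 16 h, where replicate 4 at 4 h came near the 16 h values (log2 fold change -0.94 ± 0.26, adjusted p = 0.750). Lig1, the ligase of lagging-strand synthesis, had 152, 117 and 91.5 against 63.0, 67.5 and 88.6 CPM (-0.71 ± 0.21, adjusted p = 1.0). Stmn1, a microtubule destabilizer, Brip1, a DNA repair helicase, Plk1, a mitotic kinase, and Ncapd2, a condensin subunit, had log2 fold changes of -1.16, -1.31, -1.11 and -0.62 and did not overlap between the groups. Of 54 mitosis genes, 47 had a lower estimate at 16 h and 11 an unadjusted p under 0.05, all lower, where 1.62% of all genes did so, with a median log2 fold change of -0.53. Of these 54, 12 were lower without overlap, as were 9 of the 48 DNA replication genes, beside 6.42% of all genes. Among the replication genes, 42 had a lower estimate and 3 an unadjusted p under 0.05, also lower, with a median of -0.31. Of 25 G1 regulators and cell cycle inhibitors, 16 had a higher estimate, with 6 higher and 1 lower without overlap (7.20% and 6.42% of all genes) and a median of 0.07. The adjusted threshold was passed by 0 in all 3 lists. The summed level of the mitosis genes was 1059, 1083 and 749 CPM at 4 h and 645, 693 and 756 CPM at 16 h, so that replicate 4 at 4 h fell inside the 16 h range. That of the replication genes was 1149, 1024 and 883 CPM at 4 h and 805, 752 and 838 CPM at 16 h, without overlap. Over all genes, 6574 of 13292 had a lower estimate.

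Thra, the thyroid hormone receptor alpha gene, had 567, 538 and 620 CPM at 4 h and 356, 324 and 347 CPM at 16 h (log2 fold change -0.75 ± 0.18, adjusted p = 0.288). It shares 1075 bases with Nr1d1 on the other strand, so reads of the pair cannot be told apart without strand. Nr1d1 peaked at 8 h, when Thra averaged 455 CPM, and Thra was highest at 4 h with 575 CPM. Serpina3n, a secreted protease inhibitor, had 8.24, 3.44 and 11.2 CPM against 1.58, 1.32 and 2.28 CPM (log2 fold change -2.07 ± 0.58), and Pfkfb3, which makes the activator of phosphofructokinase, 70.8, 72.1 and 111 CPM against 64.9, 41.4 and 52.9 CPM (-0.68 ± 0.21). Both have adjusted p of 0.750 or more, and the Serpina3n estimate turned to 0.47 with the second sequencing run alone.

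Among the genes with higher estimates outside the clock, Tspan4, a tetraspanin of the cell membrane, missed the threshold narrowly. It had 37.4, 48.8 and 39.6 CPM at 4 h and 113.7, 93.5 and 99.3 CPM at 16 h (log2 fold change 1.28 ± 0.24, adjusted p = 0.0507 by edgeR), and was highest of the 6 collections at 16 h. Aldh1a1, a retinaldehyde dehydrogenase, had 19.9, 24.0 and 14.9 against 43.5, 44.8 and 43.2 CPM, and Serpinb1a, an intracellular inhibitor of neutrophil proteases, 13.3, 17.1 and 10.3 against 26.6, 32.3 and 30.8 CPM. Both had an adjusted p of 0.111, with log2 fold changes of 1.15 ± 0.24 and 1.13 ± 0.24. Unlike Dbp, neither was high at 8 h: the mean of Aldh1a1 was 17.4 CPM at 8 h and 43.8 CPM at 16 h, and that of Serpinb1a 15.5 and 29.9 CPM.

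Fabp4, a fatty acid carrier abundant in adipocytes and also found in other cells, had 2.33, 2.95 and 3.28 CPM at 4 h and 8.97, 8.49 and 8.29 CPM at 16 h (log2 fold change 1.58 ± 0.38, adjusted p = 0.270). The adipocyte list summed to 3.17 to 5.91 CPM at 4 h and 10.4 to 10.6 CPM at 16 h over its 4 tested genes, of which Fabp4 itself is the largest part. The other 3 summed to 0.738 to 2.63 CPM at 4 h and 1.58 to 2.12 CPM at 16 h and overlapped, while Adipoq, Plin1, Cidec and Lep had 0 counts in all 6 libraries. Ifi205, an interferon-inducible gene of a family with near-identical copies among which reads can be split, had a log2 fold change of 0.96 ± 0.23.

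**Figure D4:**
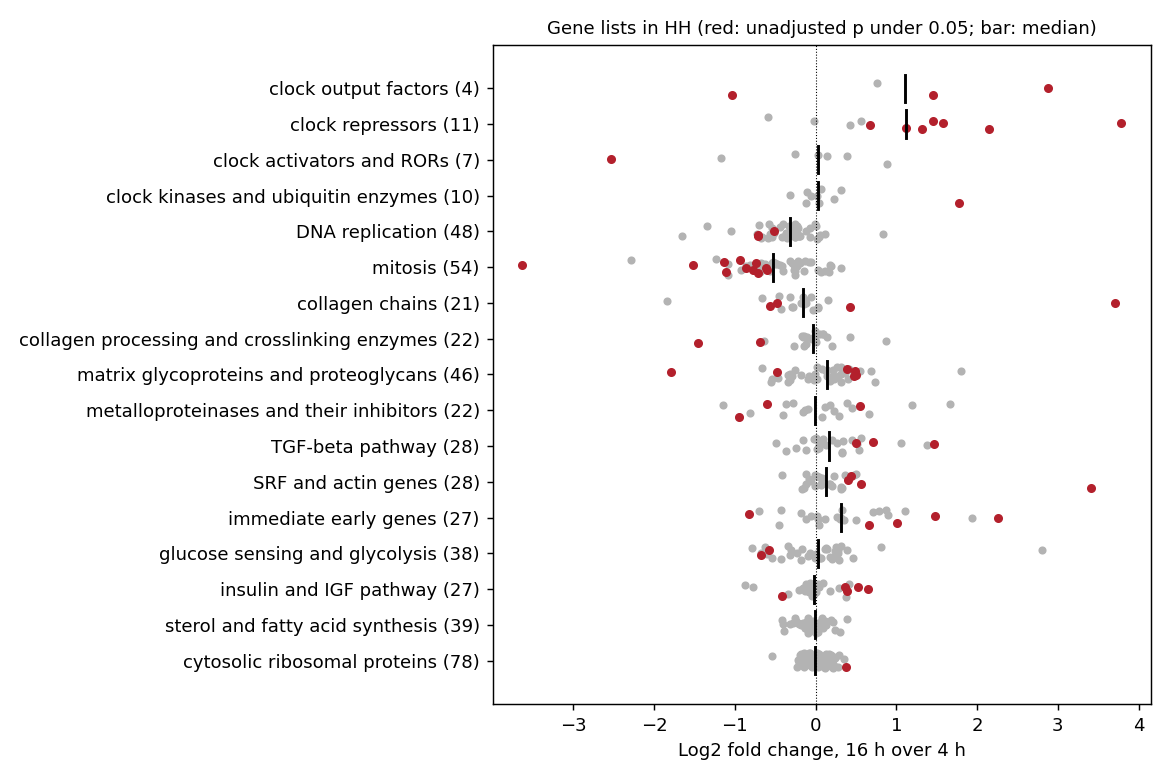
Log2 fold change at 16 h over 4 h of each tested gene of 17 lists (number tested in brackets), with red points for an unadjusted p under 0.05 and a black bar at the list's median. Clock output factors and repressors have medians of 1.10 and 1.12, the mitosis list lies mostly below zero with a median of -0.53, and the ribosomal protein list is centred at -0.01.

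None of the remaining lists held a called gene. Over all genes, 2.02% were higher and 1.62% lower at an unadjusted p under 0.05, beside which the counts below stand. Medians were 0.31 for 27 immediate early genes, with 4 higher and 1 lower at an unadjusted p under 0.05, 0.19 for 17 glucocorticoid-responsive genes (4 and 0), 0.17 for 28 genes of the TGF-beta pathway (3 and 0) and 0.13 for 28 SRF and actin genes (4 and 0). For nutrient pathways, which the medium addresses, medians were 0.03 for 38 genes of glucose sensing and glycolysis (0 and 2), -0.02 for 27 of insulin and IGF signalling (4 and 1), -0.04 for 30 of mTORC1 and AMPK (1 and 0), 0.00 for 39 of sterol and fatty acid synthesis (0 and 0) and -0.18 for 28 of ATF4 and amino acid metabolism (0 and 2). Members of the insulin and IGF list went both ways, with 6 higher and 4 lower without overlap (7.20% and 6.42% of all genes). These counts were 8 and 2 for immediate early, 4 and 0 for glucocorticoid-responsive, 7 and 1 for TGF-beta and 10 and 1 for SRF and actin genes. They were 2 and 6 for glucose sensing and glycolysis, 2 and 3 for mTORC1 and AMPK, 1 and 4 for sterol and fatty acid synthesis and 2 and 4 for ATF4 and amino acid genes. The summed level of the insulin and IGF list was 2401 to 2627 CPM at 4 h and 2784 to 2878 CPM at 16 h. In the ATF4 and amino acid list 23 of 28 genes had a lower estimate, and the summed level was 2181 to 2601 CPM at 4 h and 1892 to 2155 CPM at 16 h. Neither sum overlapped between the times, and the same held for the sums of the immediate early, TGF-beta, SRF and actin (all higher at 16 h) and mTORC1 and AMPK lists (lower). With 3 libraries at each time such sums can also separate by chance, and how often they do was not tested. The kind of medium was the same in both groups as far as the labels say, but it had stood 12 h longer at 16 h. The part of its age was not tested. Ribosomal proteins (78 genes), respiratory chain subunits (74), proteasome subunits (31) and lysosome and autophagy genes (35) had medians between -0.04 and 0.02. Heat shock chaperones, which follow temperature and serum in many rhythmic cells, had a median of -0.11 over 26 genes with 0 at an unadjusted p under 0.05, and cold-inducible RNA binding proteins 0.12 over 5 genes.

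The same change was set against HL and LH by an interaction test over all 62 libraries. For 40 HL and LH libraries the read summary gives the library number another name than the title, or no name, while this holds for 0 HH libraries. These values thus depend on which source is right. The read summary names 57 of the 62 libraries, and the fits by library numbers use only those. By titles, edgeR called 0 genes (0.0%) for HH minus HL, with 691 (5.20%) at an unadjusted p under 0.05 and 1 called by DESeq2 (Lox), and 2 genes (0.0150%) for HH minus LH, Fabp4 and Plekhg5, with 1710 (12.9%) at an unadjusted p under 0.05. For HH minus LH the count was 0 without any one of the 6 HH libraries, without LH replicate 4 at 16 h or with library totals in place of TMM, and 704 without LH replicate 4 at 4 h. By library numbers the counts were 0 and 37, but LH at 16 h then holds 1 library, which is assumed to vary like the others, so the values by numbers against LH have no replicate check in that group. The 27 genes that DESeq2 called by titles for HH minus LH included Cry1, Fabp4 and Plekhg5 and the leukocyte genes Ptprc, Csf1r, Lyz2, Cx3cr1 and Cybb. The 7 macrophage and leukocyte markers tested summed to 43.0 to 521 CPM in LH at 4 h, 16.2 to 29.2 CPM in LH at 16 h and 14.5 to 31.9 CPM in HH. The highest sum came from LH replicate 2 at 4 h, which held only 104912 counts. The part of these markers in the Fabp4 result was not tested. No difference was called for Dbp, whose change in HH minus that in HL was by titles -0.31 ± 1.01 and minus that in LH 0.50 ± 1.10 on the log2 scale, and by numbers 0.61 ± 0.60 and 1.44 ± 0.76. None was called for Tef either (0.17 ± 0.43 and 0.62 ± 0.45 by titles, 0.15 ± 0.29 and 0.42 ± 0.36 by numbers). These errors are wide and do not show that the changes were alike. For Spon2, as for Dbp, the sign against HL depended on the source of the names. By titles the difference was -1.56 ± 0.65 against HL and -1.40 ± 0.73 against LH (adjusted p = 0.950 and 0.407 by edgeR), and by numbers 0.61 ± 0.49 and -0.08 ± 0.63. For Cry1 the estimate by titles was 2.57 ± 0.62 against HL and 2.47 ± 0.63 against LH (adjusted p = 0.310 and 0.113 by edgeR), and by numbers 0.40 ± 0.60 and 0.35 ± 0.75. Cry1 averaged 8.28 ± 1.02 CPM at 4 h in HH (n = 3) and, by titles, 40.3 ± 22.7 CPM in HL (n = 4) and 34.3 ± 17.2 CPM in LH (n = 3).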

How the data were processed

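Total RNA was sequenced by 3′DGE. Per the labels and the study's methods, the sequencing service filtered, trimmed, aligned and counted the reads, and the submitters' processing notes name bcl2fastq, STAR 2.6.0a, HTSeq 0.9.1 and mm10. No source used here states the annotation release or the strand setting. The authors deposited raw counts per gene, 1 set per sequencing run (121 sets). Both runs of a library were summed. Of 31053 identifiers, 31011 matched GENCODE M21. Rows without a gene stayed out of totals and tests (18.7% to 21.8% of the 6 libraries' reads on no feature, 0.340% to 0.459% ambiguous).

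Genes with at least 1 CPM in 3 of the 62 libraries were tested with edgeR 4.0.16 in R 4.3.3 (TMM, quasi-likelihood, two-sided, Benjamini-Hochberg), with 1 coefficient per collection over the 19 HH libraries. The SE is the log2 fold change divided by the square root of F. DESeq2 1.42.0 and limma 3.58.1 were alternatives, and scripts were tested on simulated data. Depth limits low genes: 1 CPM is about 4 to 12 counts in these libraries. Genes named in the text are the 12 with the smallest p in each direction, all tested clock genes and called genes of the other lists; 2 genes of this choice are not reported here. The comparison, the members and the lists were chosen with earlier results of these data known, and any other named gene was chosen after its values were seen.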

Additional observations from a re-analysis of the deposited data

Results flagged for a closer look

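Among 58 sets of 4 libraries examined for a library far from the others (29 genes at 0 h and at 20 h in HH, which were not compared above), 4 held one, where chance alone marks about 1 in 20. Tef reached 68.5 CPM in replicate 2 at 0 h against a median of 57.4 CPM, and Usp2 reached 7.07 CPM in the same library against a median of 3.35 CPM. At 20 h, replicate 3, one of the 2 libraries that stand apart, had 1.18 CPM of Brip1 against a median of 4.88 CPM and 47.9 CPM of Lig1 against a median of 78.4 CPM.

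The change between 4 h and 16 h differed between HH and LH by the interaction test for 2 genes, with library names by titles. For Fabp4 the log2 change in HH minus that in LH was 2.87 ± 0.58 (adjusted p = 0.0442 by edgeR). Its levels on the scale of all 62 libraries were 2.80 ± 0.49 and 8.44 ± 0.36 CPM in HH (n = 3 each) and 15.3 ± 17.5 (n = 3) and 8.19 ± 3.63 CPM (n = 4) in LH. The LH libraries at 4 h ran from 0 to 34.4 CPM. Summed macrophage and leukocyte markers (7 tested) were also higher there, at 43.0 to 521 CPM against 16.2 to 29.2 CPM in LH at 16 h, and were highest in replicate 2, where Fabp4 was at 0. The 4 adipocyte markers tested, Fabp4 among them, summed to 15.03 to 51.2 CPM and 7.25 to 13.6 CPM. Their part in the result was not tested. For Plekhg5, a gene of a guanine nucleotide exchange factor, the difference was -1.64 ± 0.32 (adjusted p = 0.0442 by edgeR), with 86.7 ± 4.33 and 71.3 ± 6.13 CPM in HH and 33.5 ± 8.91 and 77.0 ± 13.9 CPM in LH. One LH library at 4 h, replicate 2, held only 104912 counts. Both calls were lost when any of the 6 HH libraries was left out, and neither was made by library numbers.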

How the results depend on the processing

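The 4 calls of the HH comparison became 21 with DESeq2, 16 with no filter on low genes, 19 with the 6 libraries alone, 0 with all 62 libraries, and 2 each with the second run alone, without libraries of 1 run and with libraries thinned to equal depth. Leaving out 1 of the 6 libraries gave 2 to 4 calls. Without replicates 2 and 3 at 20 h, a setting chosen after seeing the data, 21 were called. Dbp and Tef were called in 19 of 20 alternatives (all but the 62 libraries), Spon2 in 12 and Cry1 in 10. The log2 fold change of Serpina3n turned to 0.47 with the second run alone, the one reversal among the 29 genes followed through these settings. For HH minus HL, 0 calls became 1 with DESeq2 and 22 with no filter, and 0 to 7 when a library was left out (7 without HL replicate 4 at 4 h). For HH minus LH, 2 calls became 37 by library numbers, where LH at 16 h keeps 1 library assumed to vary like the others, 27 with DESeq2, 0 with library totals, 322 with no filter and 0 to 704 when a library was left out (0 without any of the HH libraries or LH replicate 4 at 16 h, 30, 8 and 704 without LH replicate 1, 2 or 4 at 4 h). The cause was not tested. Replicate numbers 1 and 3 are shared by the groups, but libraries of the same number did not deviate together (r = 0.0069 and 0.026 over 7829 genes), and a fit with the replicate number as a block gave 6 calls for HH, 0 for HH minus HL and 5 for HH minus LH. Depth limits low genes such as Per2, Arntl and Ciart.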

Other observations

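Outside the clock and the matrix, 20 of 27 immediate early genes had a higher estimate at 16 h, beside 6671 of all 13292 genes tested. Fos, Egr1 and Egr3 had log2 fold changes of 2.26, 1.01 and 1.48 at 16 h over 4 h (unadjusted p = 0.00796, 0.00945 and 0.00508 in edgeR's test over all genes), and Ier5 one of -0.82 (unadjusted p = 0.00675). Among glucocorticoid-responsive genes, Cebpb and Tsc22d3 had 0.56 and 0.61. None passed adjustment, and these genes were named after their values were seen.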
